A study of Mus musculus with 9 samples.

Results

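Undifferentiated mouse embryonic stem cells (ESCs) that lack *Dnmt1* (1KO ESCs) were compared with wild-type (WT) ESCs by RNA-seq, over all 15074 genes and 38385 repeat copies, in 1042 families, of the deposited tables. The comparison rests on 2 of the 9 libraries of the series, 1 for each line at day 0, and the members are every gene and every repeat copy listed, taken as the 1KO value minus the WT value. Both lines are J1 ESCs, with the genotypes wild type and Dnmt1-/-, and 1KO is 1 established knockout line. Both grew on mouse embryonic fibroblasts (MEFs) made unable to divide with mitomycin C, in medium with serum and LIF, and RNA with a poly(A) tail was sequenced. The other 7 libraries are of the same lines after 2 and 4 days of differentiation, or of another 1KO line. That line carries a catalytically inactive DNMT1 and is not analysed here. WT and 1KO values of days 2 and 4 are set beside those of day 0. For differentiation, feeders were first removed on gelatin. Cells then grew as embryoid bodies for 1 day and as adherent cells after that. Since each side has 1 library, no value has a replicate error, no test was possible and no p-value is given.

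DNMT1 is the maintenance DNA methyltransferase. At each replication it copies methylation of CpG sites from the old strand to the new, together with UHRF1, which recognises hemimethylated DNA, whereas DNMT3A and DNMT3B, helped by the inactive cofactor DNMT3L, place methylation anew. Methylated DNA is known to keep germline genes, the silent copy of imprinted genes and young endogenous retroviruses, above all intracisternal A particles (IAPs), off in somatic and embryonic cells, and mouse ESCs are known to tolerate the loss of DNMT1.

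Levels are FPKM, reads per kilobase of transcript scaled to library size, and differences are 1KO minus WT in log2(FPKM + 1). On this scale a gene was called at least 2-fold higher or lower where the difference reached 1 or −1, and adding 1 shrinks the differences of genes below about 1 FPKM. The libraries held about 20640000 counted reads in WT and 28010000 in 1KO ESCs, if 1 step in the deposited values is 1 read. At the WT depth, 1 FPKM over a kilobase is about 21 reads, with a 95% Poisson interval of 13.0 to 32.1 reads, which covers counting error only. Values of 0 do not occur in either table (0 of all entries), so a gene or copy silent in any library is probably not listed.

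*Dnmt1* itself had 74.0 FPKM in WT and 13.7 in 1KO ESCs, a difference of −2.36. It was the second lowest difference of all genes of at least 1 FPKM, and the RNA that remained is counted by gene symbol, whatever part of the transcript it comes from. The other writers of methylation were not lower as a group. *Dnmt3l* had 41.3 FPKM in WT and 203 in 1KO ESCs, a difference of 2.27. *Dnmt3b* went from 73.6 to 107 FPKM (0.54) and *Dnmt3a* from 16.7 to 20.6 FPKM (0.28). The partner gene *Uhrf1* had 107 and 156 FPKM (0.55), and its relative *Uhrf2* 21.3 and 18.2 FPKM (−0.22). Among the enzymes that remove methylation, *Tet1* had 31.2 and 37.7 FPKM (0.26), *Tet2* 6.28 and 6.54 (0.05), *Tet3* 1.72 and 1.32 (−0.23), and the DNA glycosylase gene *Tdg* 8.73 and 8.14 (−0.09). So *Dnmt3l* alone of these 10 genes was at least 2-fold higher, and *Dnmt1* alone at least 2-fold lower. Of the 8 readers of methylated CpG sites, 0 were called. The lowest was *Zbtb38*, with 4.00 FPKM in WT and 2.26 in 1KO ESCs (−0.62), and the highest *Mbd3*, with 81.6 and 112 FPKM (0.46).

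Over all 15074 genes, 337 (2.24%) were at least 2-fold higher in 1KO ESCs and 234 (1.55%) at least 2-fold lower. The median difference was −0.01, and 78.9% of the genes differed by less than 0.5. Among the 12528 genes of at least 1 FPKM in either library, the same 337 higher genes were 2.69% and the same 234 lower genes 1.87%. Only 972 genes with 1 transcript and at most 200 reads in either library could be read as whole reads in both libraries. Among these, 15 were at least 2-fold higher, and for 9 of them the exact 95% binomial (Clopper-Pearson) interval of the FPKM ratio lay above 1. For 8 of the 11 lower genes it lay below 1. These intervals say nothing about the spread between cultures.

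**Figure D1:**
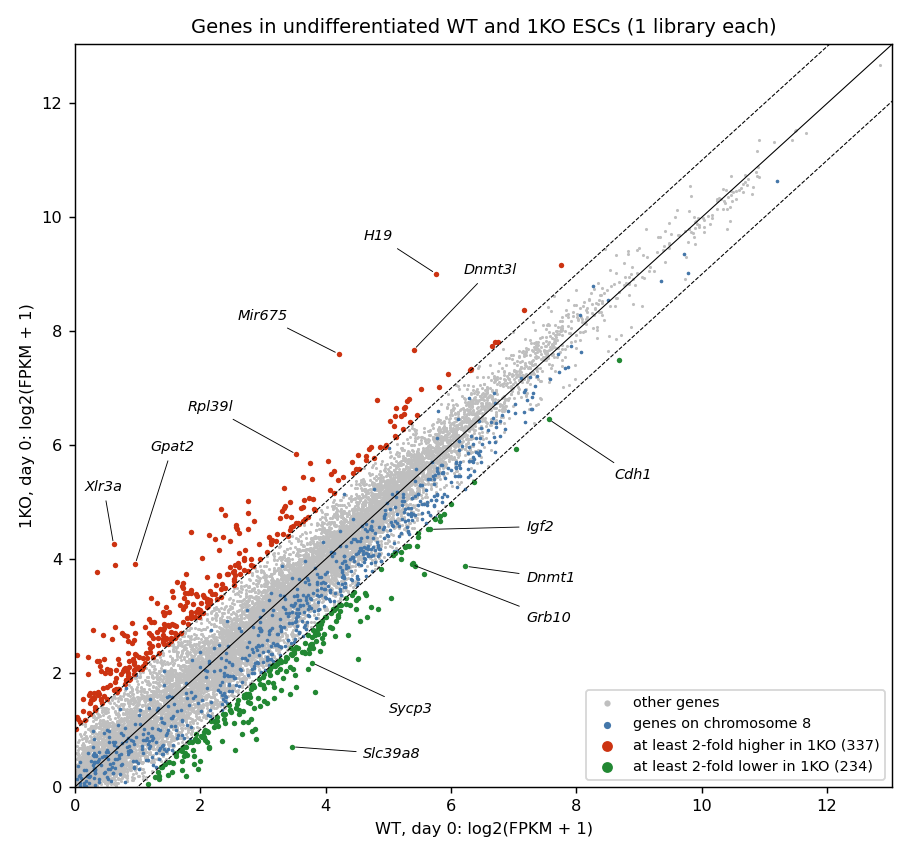
Each point is 1 of 15074 genes, with its log2(FPKM + 1) in the WT library on the x axis and in the 1KO library on the y axis at day 0. The solid line marks equal values and the dashed lines a difference of 1 either way. The 337 red genes lie above, many of them near 0 in WT, and genes of chromosome 8, in blue, run below the line of equal values.

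The 15 largest positive differences among genes of at least 1 FPKM were, in order, those of *Xlr3a*, *Xlr3b*, *Mir675*, *Fkbp6*, *H19*, *Gpat2*, *Pnma5*, *Rhox6*, *Krt14*, *Nefh*, *Rpl39l*, *Tuba3a*, *Nxf3*, *Dnmt3l* and *Khdc3*, between 3.64 and 2.26. Several of them are known from germ cells. *Fkbp6*, whose product acts in meiosis and in the piRNA pathway that silences transposons in the germline, had 0.548 FPKM in WT and 13.9 in 1KO ESCs (3.27). *Gpat2*, an acyltransferase gene expressed in the testis, had 0.944 and 14.0 FPKM (2.95), and the testis alpha-tubulin gene *Tuba3a* 3.40 and 20.5 FPKM (2.29). *Rpl39l*, a copy of the ribosomal protein gene *Rpl39* that is used in male germ cells, had 10.5 and 56.3 FPKM (2.31). *Khdc3*, which encodes a part of the maternal complex of the oocyte, had 5.75 and 31.3 FPKM (2.26). Of the others, *Krt14* and *Nefh* are not known as germ cell genes. The keratin gene *Krt14* had 0.212 and 5.74 FPKM (2.47), and the neurofilament gene *Nefh* 4.25 and 26.3 FPKM (2.38). *Nxf3*, of the RNA export factor family, had 0.016 FPKM in WT, which is close to no reads, and 3.97 in 1KO ESCs (2.29). *Pnma5*, which derives from a retrotransposon Gag gene, had 2.598 and 21.3 FPKM (2.63).

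The promoters of 5 genes that were at least 2-fold higher in 1KO ESCs and have roles in the germline, and that of *Dnmt3l*, are printed to show how much they differ in CpG sites, the substrate of DNMT1. Each is the 250 bases before the start of the gene in RefSeq (GRCm38.p6), 5′ to 3′ on the strand of the gene, with every CG in capitals.
Dazl (chr17:50293621-50293870, minus strand): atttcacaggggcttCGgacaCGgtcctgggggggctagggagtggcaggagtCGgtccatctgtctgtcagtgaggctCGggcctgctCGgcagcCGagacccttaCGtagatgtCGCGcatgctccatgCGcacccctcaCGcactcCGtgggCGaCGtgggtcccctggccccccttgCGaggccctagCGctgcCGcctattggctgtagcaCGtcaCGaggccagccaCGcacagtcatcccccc
Hormad1 (chr3:95559427-95559676, plus strand): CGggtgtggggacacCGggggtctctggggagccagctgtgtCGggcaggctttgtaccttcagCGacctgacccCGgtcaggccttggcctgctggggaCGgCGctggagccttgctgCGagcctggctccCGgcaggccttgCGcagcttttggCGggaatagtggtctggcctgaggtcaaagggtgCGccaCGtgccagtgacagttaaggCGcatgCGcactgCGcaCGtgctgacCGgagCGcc
Slc25a31 (chr3:40708621-40708870, plus strand): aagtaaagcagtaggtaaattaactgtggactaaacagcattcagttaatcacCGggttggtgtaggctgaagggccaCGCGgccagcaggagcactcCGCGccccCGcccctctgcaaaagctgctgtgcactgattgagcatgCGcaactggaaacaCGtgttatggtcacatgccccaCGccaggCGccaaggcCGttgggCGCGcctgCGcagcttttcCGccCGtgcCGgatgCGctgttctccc
Tuba3a (chr6:125286082-125286331, minus strand): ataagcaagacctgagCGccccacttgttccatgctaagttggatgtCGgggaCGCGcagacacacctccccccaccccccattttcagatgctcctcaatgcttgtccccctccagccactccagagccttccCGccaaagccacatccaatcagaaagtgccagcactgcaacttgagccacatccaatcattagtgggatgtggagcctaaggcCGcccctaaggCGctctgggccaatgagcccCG
Dnmt3l (chr10:78042037-78042286, plus strand): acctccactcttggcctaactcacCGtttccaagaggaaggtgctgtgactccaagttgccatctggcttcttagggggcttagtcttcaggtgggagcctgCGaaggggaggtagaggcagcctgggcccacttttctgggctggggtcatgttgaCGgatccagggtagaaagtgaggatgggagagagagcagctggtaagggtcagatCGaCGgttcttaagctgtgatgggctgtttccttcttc
Xlr3a (chrX:73097096-73097345, minus strand): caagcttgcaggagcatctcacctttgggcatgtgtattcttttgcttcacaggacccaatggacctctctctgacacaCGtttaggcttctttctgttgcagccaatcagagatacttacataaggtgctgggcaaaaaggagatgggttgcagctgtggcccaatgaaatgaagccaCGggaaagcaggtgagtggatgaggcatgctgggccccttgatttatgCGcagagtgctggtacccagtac
The CG count was 20 for *Dazl*, 19 for *Hormad1*, 18 for *Slc25a31*, 8 for *Tuba3a*, 5 for *Dnmt3l* and 3 for *Xlr3a*. Over the 32851 promoters of the same table, the median count was 6 and the quartiles 2 and 16, and 92.1% had at least 1 CG. The first 3 thus lie above the upper quartile, *Tuba3a* above the median, and *Dnmt3l* and *Xlr3a* below it. Methylation of these sites was not analysed here.

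The reproductive homeobox (*Rhox*) genes and the *Xlr* genes, both X-linked families active in germ cells and in placenta or lymphocytes, stood highest of the 22 lists of genes examined. Of the 8 members listed, 8 were higher in 1KO ESCs and 7 (87.5%) at least 2-fold, against 2.24% of all genes, and the median difference was 2.05. *Xlr3a* had 0.530 FPKM in WT and 18.1 in 1KO ESCs (3.64), and *Xlr3b* 0.270 and 12.7 FPKM (3.43). These 2 genes are near-identical copies, and the way reads were divided between them is not given in the sources used here. In the *Rhox* cluster, *Rhox6* had 4.04 and 28.2 FPKM (2.54), *Rhox13* 0.154 and 3.87 (2.08), *Rhox9* 4.13 and 19.9 (2.03), *Rhox1* 0.276 and 3.62 (1.86), and *Rhox5*, already abundant in WT ESCs, 43.0 and 91.5 (1.07). *Xlr*, with 0.133 and 0.740 FPKM (0.62), was the member below 2-fold. The other 22 genes of the list are not in the table. Of all 554 listed genes of the X chromosome, 29 (5.23%) were at least 2-fold higher, against at most 3.02% on any autosome, and 7 of the 29 belong to this list.

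Of 57 listed germ cell genes, 18 (31.6%) were at least 2-fold higher in 1KO ESCs, against 2.24% of all genes, and 2 (3.51%) at least 2-fold lower, against 1.55%. The list median was 0.33. Next to *Fkbp6* and *Tuba3a*, the highest were *Dazl*, *Slc25a31* and *Hormad2*. *Dazl*, an RNA-binding protein gene needed for germ cell development, had 1.93 FPKM in WT and 9.77 in 1KO ESCs (1.88). *Slc25a31*, the ADP/ATP carrier gene of sperm, had 0.321 and 3.37 FPKM (1.73). *Hormad2*, a gene of the meiotic chromosome axis, had 0.798 and 4.89 FPKM (1.71), or 22 and 184 reads, a ratio of FPKM values of 6.16 (exact 95% binomial interval, 3.95 to 10.1). Genes for meiotic chromosomes went both ways. *Syce1* was at 2.37 and 9.61 FPKM (1.66), *Hormad1* at 2.43 and 8.49 (1.47) and *Smc1b* at 2.31 and 6.39 (1.16). In contrast, *Rec8* was at 8.76 and 5.72 (−0.54) and *Stag3* at 17.5 and 17.6 (0.01). *Syce2* was at 80.8 and 54.4 (−0.56), but lies on chromosome 8, whose genes were lower as a set. Genes of the piRNA pathway also went both ways. *Gtsf1* was at 0.610 and 3.75 FPKM (1.56), *Mael* at 3.52 and 9.50 (1.21) and *Piwil2* at 2.47 and 6.25 (1.06). Lower were *Tdrd12*, at 26.6 and 15.8 (−0.71), and *Tdrd1*, at 1.11 and 0.357 (−0.64). *Ctcfl*, the germline relative of *Ctcf*, had 0.0895 and 1.93 FPKM (1.43). The list did not move as a whole. *Sycp3*, which encodes a core protein of the synaptonemal complex, had 12.8 FPKM in WT and 3.52 in 1KO ESCs (−1.61), and *Tex14*, needed for the bridges between germ cells, 5.64 and 1.97 FPKM (−1.16). *Ddx4* (7.12 and 9.25 FPKM, 0.34), *Dmc1* (5.25 and 4.16, −0.28) and *Sycp1* (2.45 and 2.24, −0.09) were below 2-fold either way.

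Imprinted genes, which are expressed from the copy of 1 parent, differed gene by gene. *H19*, a maternally expressed non-coding RNA on chromosome 7, had 52.99 FPKM in WT and 516 in 1KO ESCs (3.26). *Igf2*, its paternally expressed neighbour, which is known to be active where *H19* is silent, had 49.6 and 21.95 FPKM (−1.14). *Mir675* lies inside *H19*, and its entry had 17.4 and 193 FPKM (3.40). In these libraries of poly(A) RNA, reads at this locus may come from the *H19* transcript, and the mature miRNAs were not measured. They are printed from RefSeq (GRCm38.p6, chromosome 7, minus strand) with the seed, bases 2 to 8, in capitals, since this is the gene whose host RNA is among the largest differences.
mmu-miR-675-5p (chr7:142577112-142577133): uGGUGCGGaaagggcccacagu
mmu-miR-675-3p (chr7:142577078-142577099): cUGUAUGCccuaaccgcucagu
Of 19 listed maternally expressed genes, 3 (15.8%) were at least 2-fold higher and 3 (15.8%) at least 2-fold lower. The shares of all genes were 2.24% and 1.55%, and the list median was −0.15. Besides *H19*, *Ascl2*, a transcription factor gene of the placenta, had 0.75 and 2.68 FPKM (1.07), and the non-coding RNA *Mirg* 5.79 and 12.8 FPKM (1.02). The lower ones were *Grb10*, a growth inhibitor gene, with 40.3 and 14.0 FPKM (−1.46), *Calcr*, the calcitonin receptor gene, with 2.45 and 0.466 (−1.23), and *Phlda2*, which limits placental growth, with 48.5 and 21.9 (−1.11). *Cdkn1c*, a cell cycle inhibitor gene beside *Phlda2*, lay just short of 2-fold, with 17.5 and 8.32 FPKM (−0.99). Of 33 listed paternally expressed genes, 23 were higher in 1KO ESCs, 3 (9.09%) at least 2-fold, and 1 (3.03%, *Igf2*) was at least 2-fold lower, with a median of 0.48. The 3 were *Mest*, with 37.1 and 99.5 FPKM (1.399), *Dlk1*, with 0.736 and 3.25 (1.29), and *Peg10*, with 78.2 and 159 (1.01). *Snrpn* (66.8 and 132 FPKM, 0.97) and *Snurf* (79.6 and 156, 0.96), which share 1 transcript, *Plagl1* (2.56 and 5.91, 0.95), *Mcts2* (9.62 and 18.997, 0.91) and *Peg3* (16.3 and 28.7, 0.78) came next. The 2 alleles of a gene cannot be told apart in these tables.

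**Figure D2:**
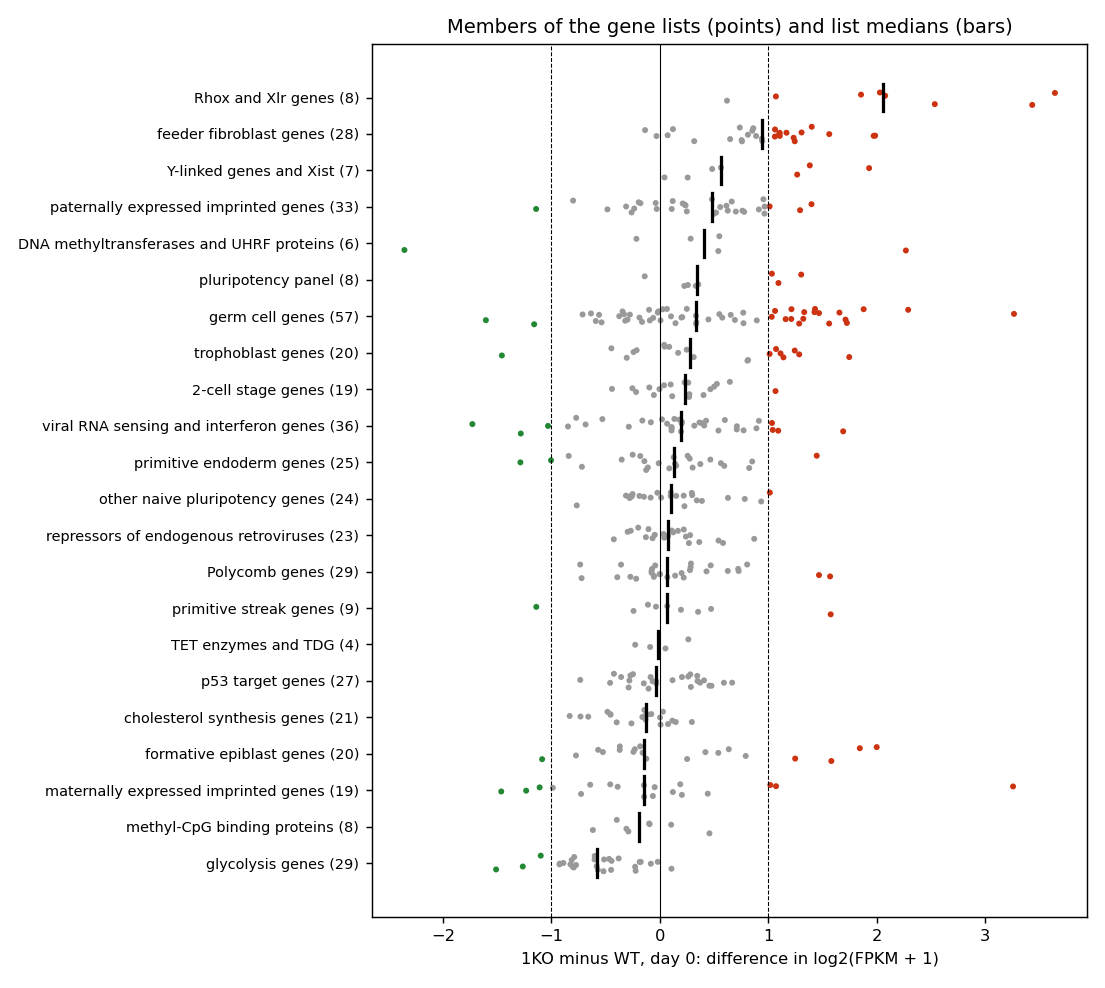
Each point is 1 gene of the list named on the left, with the number of members in the table in brackets, placed at its 1KO minus WT difference in log2(FPKM + 1) at day 0, and the bars are list medians. *Rhox* and *Xlr* genes have the highest median, 2.05, and glycolysis genes the lowest, −0.58, and 18 germ cell genes lie beyond the dashed line at 1, red marking members at least 2-fold higher and green those lower.

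Among repeats, the IAPs stood apart from every other group. IAPEz-int, which holds the coding part of IAPEz, was listed with 426 copies, of which 397 were at least 2-fold higher in 1KO ESCs and 0 at least 2-fold lower. Its mean per copy was 0.727 FPKM in WT and 7.14 in 1KO ESCs (2.24), a 9.82-fold ratio of means. The IAP long terminal repeats (LTRs), which carry the promoter of the element, were higher too. IAPLTR1_Mm (76 copies) had means of 1.42 and 8.27 FPKM (1.94), with 67 copies at least 2-fold higher, and IAPLTR1a_Mm (25 copies) 0.371 and 2.75 FPKM (1.45), with 19. Among the 371 families with at least 10 listed copies, these 3 (0.809%) were at least 2-fold higher and 0 (0%) were at least 2-fold lower. Copies of a family come from the same libraries and may share reads, so they are not replicates.

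Single IAPEz-int copies varied in level in both lines. In WT ESCs they ran from 0.014 to 9.54 FPKM with a median of 0.417, and in 1KO ESCs from 0.425 to 17.5 FPKM with a median of 7.12. The single-copy difference ran from 0.17 to 3.69, with quartiles of 1.78 and 2.77. The 74 copies that already had at least 1 FPKM in WT ESCs had a median of 8.78 FPKM in 1KO ESCs, and the other 352 a median of 6.82 FPKM. Of the 1882 copies of any family that were at least 2-fold higher, which are 4.90% of all copies (6.82% were at least 2-fold lower), 494 were IAP copies, though IAPs were 1.74% of the copies listed, and 95 of the 100 largest differences were theirs. The 5 largest single-copy differences were 3 IAPEz-int copies (dup227 from 0.103 to 13.3 FPKM, dup103 from 0.298 to 13.8 and dup140 from 0.220 to 12.2), an AT_rich stretch (dup8364, 1.403 to 27.8) and RLTR1B-int dup1 (1.16 to 23.5). Positions of the copies are not in the table, and their sequences are not shown.

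The higher level was not shared by all IAP families. Of the 22 listed, 5 were at least 2-fold higher, the 3 above and IAPA_MM-int (4 copies, 0.367 and 6.96 FPKM, 2.54) and IAPEy-int (2 copies, 0.0475 and 1.42 FPKM, 1.21). Of the 2 IAPEy-int copies, 1 was higher. The other 17 lay within 0.5 of no difference on this scale. IAPLTR2_Mm (21 copies) had 0.436 and 0.967 FPKM (0.45), IAPEY4_I-int (20 copies) 1.65 and 2.07 (0.21), and IAP-d-int (17 copies) 1.29 and 0.859 (−0.30). Of the 21 IAPLTR2_Mm copies, 18 were higher, and the family was at 1.58 at day 4. Adding 1 shrinks differences of families with means below 1 FPKM, so the split into 5 and 17 depends in part on the scale.

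**Figure D3:**
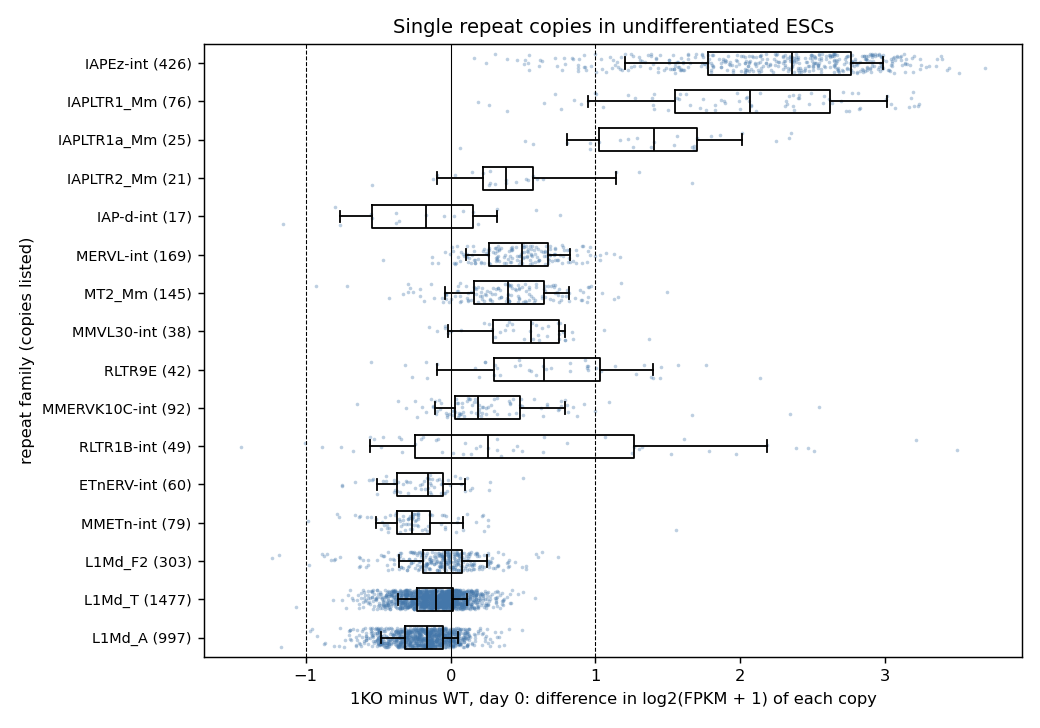
Each point is 1 repeat copy of the family named on the left, with the number of listed copies in brackets, at its 1KO minus WT difference in log2(FPKM + 1) at day 0. Boxes span the quartiles, with the median as a line, and whiskers the 10th to 90th percentile of copies. The boxes of IAPEz-int, IAPLTR1_Mm and IAPLTR1a_Mm lie beyond the dashed line at 1, those of MERVL-int and MT2_Mm between 0 and 1, and those of the LINE-1 families around or below 0.

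Other retroviral families differed less. MERVL-int (169 copies), the internal part of the retrovirus expressed at the 2-cell stage, had 1.12 and 1.99 FPKM (0.49), and its LTR, MT2_Mm (145 copies), 0.867 and 1.45 FPKM (0.39). After the IAPs, the highest families of at least 10 copies were MMVL30-int (38 copies, 5.55 and 10.9 FPKM, 0.86), RLTR6_Mm, which is its LTR (13 copies, 2.68 and 5.19 FPKM, 0.75), and RLTR9E (42 copies, 2.64 and 5.08 FPKM, 0.74). None of these 5 reached 2-fold. MMERVK10C-int (92 copies) had 0.558 and 1.04 FPKM (0.39). The early transposon ETnERV-int (60 copies) was abundant in both lines, with 22.4 and 19.6 FPKM (−0.19), and RLTR4_Mm (13 copies) had 3.07 and 2.80 FPKM (−0.10). MuLV-int was listed with 1 copy, at 2.09 and 5.196 FPKM (1.003). RLTR1B-int was mixed, with 15 of 49 copies at least 2-fold higher, 2 at least 2-fold lower and a difference of 0.40 over the family.

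Young LINE-1 families were not higher. L1Md_T (1477 copies) had 0.460 and 0.340 FPKM (−0.12), L1Md_A (997 copies) 0.657 and 0.423 (−0.22), and L1Md_Gf (58 copies) 0.377 and 0.247 (−0.14). Over the 6 such families, 0 of 2966 copies were at least 2-fold higher and 5 (0.169%) lower, against 4.90% and 6.82% of all copies. Their mean was 0.560 FPKM in WT and 0.414 in 1KO ESCs. At this level a doubling of a copy would not be called, because 1 is added to each value. The major satellite, GSAT_MM, had 2 listed copies, with 0.825 and 0.487 FPKM (−0.30). Another satellite family, MMSAT4 (313 copies), was higher, with 16.8 and 25.9 FPKM (0.60). Of its copies, 27 (8.63%) were at least 2-fold higher and 3 lower. The lowest families of at least 10 copies were HAL1 (5.56 and 3.32 FPKM, −0.60), (TCTG)n (11.5 and 7.30, −0.59), RLTR42-int (13.1 and 8.43, −0.58) and L1MD1 (2.68 and 1.58, −0.51). The median over all copies was −0.10, and bringing it to the scale of median copy ratios would add 0.19 to every log2 ratio of repeats. The 1KO library was 1.36 times as deep, and its part in this shift was not tested.

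The repressors that keep endogenous retroviruses silent through histone methylation and related routes were within 2-fold where listed. Of 25 in the list, 23 were in the table, 15 of them higher and 0 called, with a median of 0.08. The highest was *Zfp809*, a KRAB zinc finger gene that recruits *Trim28* to retroviral DNA, with 8.44 and 16.3 FPKM (0.87). *Trim28* had 453 and 679 FPKM (0.58), *Setdb1* 26.3 and 34.2 (0.36), and *Smchd1*, the lowest, 22.3 and 16.3 (−0.43). A run of mostly zinc finger genes was higher. On chromosome 4, from 145267132 to 147642508, 10 of 18 listed genes were at least 2-fold higher, with differences of 1.08 to 2.02. They include *Zfp600* (4.94 and 23.1 FPKM, 2.02), *Zfp981* (12.4 and 50.5, 1.95), *Rex2* (5.00 and 22.2, 1.95) and *Zfp991* (12.8 and 41.4, 1.63), and were chosen after their values were seen. Genes of this cluster are close copies of each other, so their reads may not be separable.

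Pluripotency genes, the defining markers of ESCs, were at high levels in both lines. *Pou5f1*, which encodes OCT4, had 632 FPKM in WT and 808 in 1KO ESCs (0.35), *Sox2* 206 and 187 (−0.14), *Nanog* 163 and 205 (0.33), *Zfp42* 266 and 312 (0.23) and *Esrrb* 96.5 and 116 (0.26). Of the panel of 8, 3 (37.5%) were at least 2-fold higher, against 2.24% of all genes, and 0 lower, with a median of 0.34. They were *Dppa3*, a gene of oocytes and germ cells that protects methylation in the zygote, with 35.7 and 89.7 FPKM (1.304), *Tbx3*, with 4.27 and 10.2 (1.09), and *Klf4*, with 30.3 and 63.1 (1.03). Of 24 other naive pluripotency genes, 1 (4.17%), *Nr0b1*, was at least 2-fold higher, with 33.8 and 69.4 FPKM (1.01), and the lowest was *Lefty1*, with 395 and 232 FPKM (−0.77).

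Genes of later lineages differed in either direction. The shares to set them against are those of all genes, 2.24% at least 2-fold higher and 1.55% lower. Of 20 formative epiblast genes, 4 (20%) were at least 2-fold higher and 1 (5%) lower, and the median was −0.14. The Wnt effector gene *Lef1* had 3.05 and 15.2 FPKM (2.00), *Foxd3* 4.56 and 18.96 (1.84), *Etv4* 9.17 and 29.4 (1.58) and *Tcf15* 25.3 and 61.5 (1.25), whereas *Sall2* had 9.34 and 3.87 (−1.09). Of 9 primitive streak genes, 1 was at least 2-fold higher and 1 lower, with a median of 0.07. *Fst*, the follistatin gene, had 2.32 and 8.90 FPKM (1.58) and *Fgf8* 9.17 and 3.62 (−1.14), and *T*, which encodes brachyury, had 33 and 73 reads, a ratio of FPKM values of 1.63 (exact 95% binomial interval, 1.07 to 2.54). Of 25 primitive endoderm genes, 1 (4%) was at least 2-fold higher and 2 (8%) lower, with a median of 0.13. *Thbd* had 1.67 and 6.29 FPKM (1.45), *Lrp2* 11.6 and 4.15 (−1.29) and *Krt19* 33.4 and 16.1 (−1.004), and the regulator genes *Gata6* (0.606 and 1.84, 0.82), *Pdgfra* (0.832 and 1.77, 0.59), *Gata4* (1.31 and 0.937, −0.25) and *Sox17* (0.137 and 0.208, 0.09) were below 2 FPKM in both lines. Of the 13 defining primitive endoderm markers, 9 were higher, 0 of them at least 2-fold, and 1 was at least 2-fold lower. These markers summed to 216 FPKM in WT and 284 in 1KO ESCs, whereas the list of 25 summed to 815 and 695 FPKM. Of 20 trophoblast genes, 7 (35%) were at least 2-fold higher and 1 (5%) lower, with a median of 0.28. Of the 7, *Peg10*, *Ascl2* and *Tex19.1* (20.3 and 50.9 FPKM, 1.29) belong to other lists as well, and the others were *Sct* (0.936 and 5.50 FPKM, 1.75), *Hand1* (1.35 and 4.56, 1.24), *Gata2* (0.803 and 2.97, 1.14) and *Ldoc1* (0.938 and 3.19, 1.11). *Mmp9* was lower, with 3.39 and 0.597 FPKM (−1.46). Of the 8 defining trophoblast markers, *Cdx2*, *Elf5*, *Plac1* and *Tpbpa* are not in the table. The other 4 were all higher, 2 of them at least 2-fold, with a median of 0.62. They summed to 12.8 FPKM in WT and 19.4 in 1KO ESCs. Of 19 genes of the 2-cell stage, 1 was at least 2-fold higher, *Gm21761* (3.45 and 8.32 FPKM, 1.07), and *Dux*, the factor that switches this programme on, had 0.167 and 0.123 FPKM (−0.06).

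Fibroblast genes were higher as well. Of 28 genes of feeder fibroblasts listed, 26 were higher in 1KO ESCs, with a median of 0.94. At least 2-fold, 13 (46.4%) were higher, against 2.24% of all genes, and 0 lower. The chemokine gene *Ccl2* had 4.94 and 22.5 FPKM (1.99), *S100a4* 27.3 and 110 (1.97), the collagen genes *Col5a2* 9.06 and 28.7 (1.56) and *Col1a1* 39.0 and 76.0 (0.94), and *Lox*, which crosslinks collagen, 15.998 and 43.9 (1.401). *Fn1* (173 and 157 FPKM, −0.14) and *Col5a1* (14.2 and 13.9, −0.03) were the 2 lower ones. The sum of the list was 812 FPKM in WT and 1410 in 1KO ESCs. Of the 12 defining markers, 11 were listed, 10 of them higher, with sums of 489 and 817 FPKM, and *Lum* is not in the table. At day 2 the list summed to 481 and 424 FPKM, though 22 of the 28 genes were still higher, with a median of 0.27. The part of feeder RNA in this and in other differences at day 0 was not tested, the labels do not say whether feeders were removed before RNA was taken at day 0, and more cells of a type and more RNA per cell cannot be told apart in bulk samples.

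Glycolysis genes, many of which respond to low oxygen, were lower together, in a list that also holds other genes responsive to low oxygen. Of 29 listed, 28 were lower in 1KO ESCs, with a median of −0.58. At least 2-fold, 3 (10.3%) were lower, against 1.55% of all genes, and 0 higher. Of the 3, only *Aldoc* is a glycolysis gene, with 13.9 and 4.24 FPKM (−1.51). The others were *Egln3*, an oxygen sensor gene, with 23.9 and 9.37 (−1.26), and *Bnip3*, with 131 and 60.4 (−1.10). Among the most abundant, *Pgk1* had 853 and 481 FPKM (−0.82), *Tpi1* 418 and 244 (−0.77), the glucose transporter gene *Slc2a3* 467 and 269 (−0.80) and *Ldha* 862 and 633 (−0.45). *Pfkp*, with 38.6 and 41.7 FPKM (0.11), was the member not lower. *Gapdh* is listed at 15.2 and 7.75 FPKM, far below *Pgk1*, so its entry may not hold all of its reads. Of 21 cholesterol synthesis genes, 14 were lower and 0 called, with a median of −0.13. The lowest was *Msmo1*, a sterol oxidase gene of this pathway, with 60.1 and 33.3 FPKM (−0.83).

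Genes of viral RNA sensing and of the interferon response, which loss of DNA methylation can induce in other cells, went both ways. Of 36 listed, 4 (11.1%) were at least 2-fold higher and 3 (8.33%) lower, against 2.24% and 1.55% of all genes, with a median of 0.20. The higher ones were *Oas1a* (1.31 and 6.46 FPKM, 1.69), *Ifitm3* (99.7 and 214, 1.09), *Zbp1*, a sensor of Z-form nucleic acid (2.08 and 5.34, 1.04), and *Irf7* (0.351 and 1.77, 1.03). The lower ones were *Gbp2* (32.0 and 8.96, −1.73), *Oasl2* (7.06 and 2.31, −1.28) and the immunoproteasome gene *Psmb8* (15.95 and 7.29, −1.03). Of the sensors of double-stranded RNA, *Ifih1*, which encodes MDA5, had 0.470 and 0.540 FPKM (0.07) and *Ddx58*, which encodes RIG-I, 6.92 and 8.07 (0.19). Of 29 Polycomb genes, 2 (6.90%) were at least 2-fold higher, *Phf19* (1.82 and 7.39 FPKM, 1.57) and *Epop* (45.0 and 126, 1.47), both of which encode factors that bind PRC2, and 0 lower. The core genes *Ezh2* (71.6 and 68.8, −0.06) and *Suz12* (59.6 and 68.6, 0.20) differed little, *Pcgf1* was the lowest (6.70 and 3.63, −0.74), and the median was 0.07. Of 27 target genes of p53, 0 were called, and the median was −0.03. *Cdkn1a*, which encodes p21, had 37.5 and 52.6 FPKM (0.48), *Fas*, the highest, 0.365 and 1.17 (0.67) and *Polk*, the lowest, 7.14 and 3.89 (−0.73).

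Of 7 listed genes on the Y chromosome or at the X inactivation centre, 7 were higher. At least 2-fold higher were 3 (42.9%), against 2.24% of all genes. *Uba1y* had 1.47 and 8.41 FPKM (1.93), *Ddx3y* 4.54 and 13.4 (1.38), and *Zfy1* 17 and 165 reads, a ratio of FPKM values of 7.15 (exact 95% binomial interval, 4.33 to 12.6). *Eif2s3y* (32.9 and 46.3 FPKM, 0.48) and *Uty* (2.598 and 4.32, 0.56), on the same chromosome, were below 2-fold. *Xist* was at 0.572 and 0.877 FPKM (0.26) and *Tsix* at 1.14 and 1.21 (0.04). On chromosome 1, 8 of 9 genes of the run from 88055411 to 88220002 were at least 2-fold higher, all of them *Ugt1a* genes, which share exons, so that they are not 8 separate results.

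The 15 largest negative differences were those of *Slc39a8*, *Dnmt1*, *Mir6381*, *Ltb*, *Tnnc1*, *Mobp*, *Slc9a5*, *Mir1949*, *Mir682*, *Kif1a*, *Trim67*, *Gbp2*, *Mir1199*, *Arl4c* and *Firre*, between −2.76 and −1.69. *Slc39a8*, a zinc transporter gene, had 10.0 FPKM in WT and 0.627 in 1KO ESCs (−2.76). *Ltb*, the lymphotoxin beta gene, had 13.1 and 2.15 FPKM (−2.16), and *Tnnc1*, the cardiac troponin C gene, 6.36 and 0.798 (−2.03). The myelin gene *Mobp* had 4.87 and 0.573 FPKM (−1.90), *Kif1a*, a motor of axonal transport, 9.79 and 2.08 (−1.81), *Arl4c*, a small GTPase gene, 27.5 and 7.73 (−1.71) and the X-linked non-coding RNA *Firre* 19.5 and 5.36 (−1.69). The miRNA entries rest on few reads. *Mir1949* had 9 and 2 reads, a ratio of 0.164 with an exact 95% binomial interval of 0.0172 to 0.791, and *Mir1199* 13 and 3 reads, a ratio of 0.170 with an interval of 0.0311 to 0.619. The remaining ones were *Mir6381* (21.9 and 3.72 FPKM), which lies within *Gbp2*, and *Mir682* (46.7 and 12.4 FPKM).

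Genes of chromosome 8 were lower as a set. Of 808 listed, 689 (85.3%) were lower in 1KO ESCs, with a median difference of −0.43 and a median FPKM ratio of 0.687. On every other autosome and the X the median lay between −0.03 and 0.04, and between 44.3% and 53.1% of genes were lower. The shift ran along the whole chromosome, with median ratios of 0.611 to 0.728 in 13 windows of 10 Mb, over genes of at least 1 FPKM. It was there on each day, with medians of −0.46 at day 2 and −0.44 at day 4. Of the 234 genes at least 2-fold lower, 55 (23.5%) lie on chromosome 8, which holds 5.37% of the genes placed, and 6 of the 55 were at least 2-fold below the median of the chromosome. *Slc9a5* (6.05 and 0.964 FPKM, −1.84), *Trim67* (10.5 and 2.35, −1.78) and *Mir1199*, named above, are on this chromosome, as is *Cdh1*, the E-cadherin gene, with 188 and 86.5 FPKM (−1.11). Without chromosome 8, 332 of 14232 placed genes (2.33%) were at least 2-fold higher and 179 (1.26%) lower. The number of copies of the chromosome in the 1KO line was not analysed here, and its part in these differences was not tested.

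**Figure D4:**
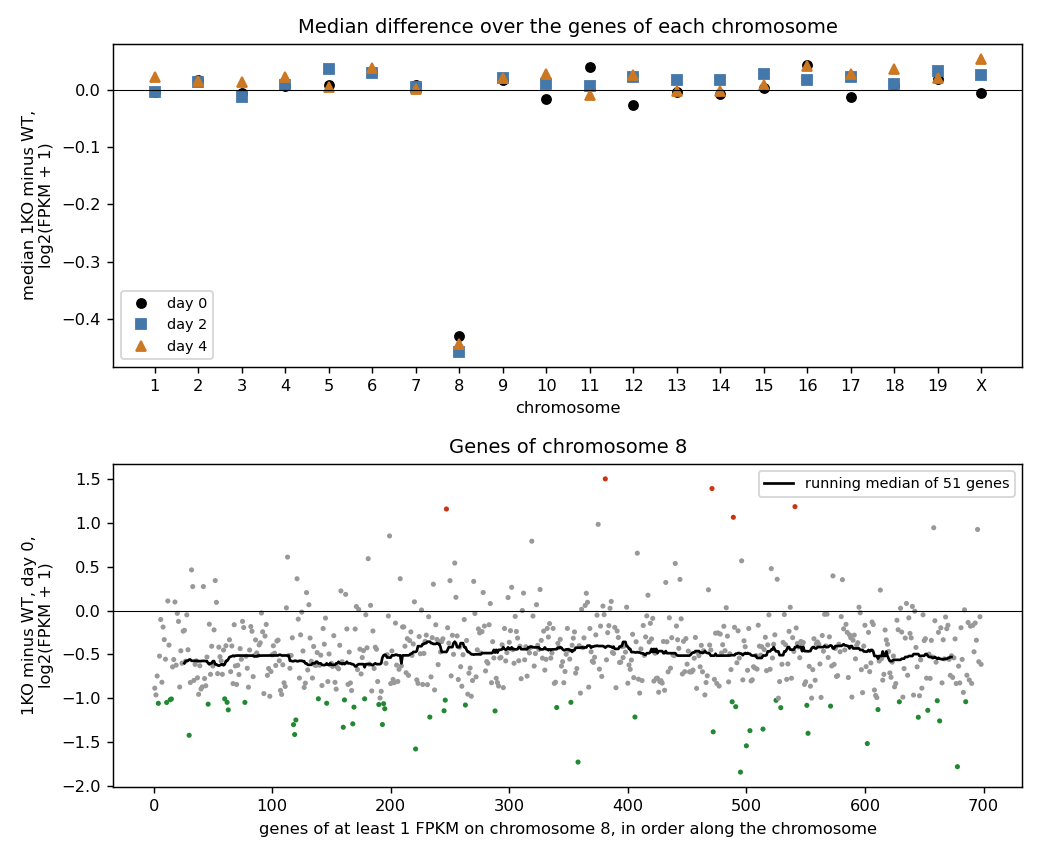
The upper panel gives the median 1KO minus WT difference in log2(FPKM + 1) over the genes of each chromosome at days 0, 2 and 4, and the lower panel the genes of at least 1 FPKM on chromosome 8 at day 0 in their order along it, with a running median. Chromosome 8 lies at −0.43, −0.46 and −0.44, every other chromosome shown within 0.06 of 0, and the running median stays below 0 throughout.

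The differences of day 0 were set beside those of the same lines at days 2 and 4. The 6 libraries are separate, but each genotype is 1 line throughout, so the days are not replicates of the genotype. Of the 337 genes at least 2-fold higher at day 0, 84 (24.9%) were so at day 2, against 1.60% of all genes, and 56 (16.6%) at day 4, against 1.67%, and 40 on all 3 days. Of the 234 lower genes, 14 (5.98%) were at least 2-fold lower at day 2, against 0.663% of all genes, and 12 (5.13%) at day 4, against 0.590%. Only *Dnmt1*, *Grb10*, *As3mt* and *Igf2* were so on all 3 days. In the opposite direction, 4 (1.71%) of the 234 were at least 2-fold higher at day 2 and 15 (6.41%) at day 4. Their median was −0.24 at day 2 and −0.04 at day 4. Outside chromosome 8, 100 of 179 lower genes (55.9%) were higher at day 4, against 50.7% of all genes. Of the 337 higher genes, 2 were at least 2-fold lower at day 2 and 3 at day 4. The day 0 groups differed in how many members stayed called. Of the 18 higher germ cell genes, 15 were at least 2-fold higher at day 2 and 5 at day 4, whereas of the 13 higher feeder fibroblast genes 2 were so at day 2 and 1 at day 4. Of the 7 *Rhox* and *Xlr* genes, 4 were at day 2 and 3 at day 4. *Xlr3a* had differences of 3.50 and 2.57 on days 2 and 4, *H19* of 3.49 and 4.37 and *Fkbp6* of 3.32 and 2.65, and *Gpat2* of 3.05 and 3.22. In contrast, *Rhox6* was at −0.52 and 0.88, *Rhox9* at −0.78 and 0.11 and *Dnmt3l* at 0.99 and −0.06. *Dazl*, at 1.74 on day 2, was at −0.01 on day 4. Among the 40 genes, germline or testis genes such as *Rec114* (1.82, 1.24 and 2.50 on days 0, 2 and 4), *Usp26* (1.03, 2.22 and 1.89) and *Fmr1nb* (1.57, 1.55 and 2.11), named after their values were seen, stand with *Peg10* and *Mirg*.

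Of all repeat copies, 5.74% were at least 2-fold higher and 5.09% lower at day 2, and 6.77% and 3.76% at day 4. Repeats had 2 families of at least 10 copies (0.539%) at least 2-fold higher at day 2 and 7 (1.89%) at day 4. IAPEz-int was higher on each day, with differences of 2.24, 1.67 and 3.53, as were IAPLTR1_Mm, with 1.94, 1.34 and 3.13, and IAPLTR1a_Mm, with 1.45, 0.77 and 2.14. The median IAPEz-int copy had 0.513 FPKM in WT and 4.53 in 1KO cells at day 2, and 0.345 and 16.7 at day 4. MERVL-int was at 0.49, −0.24 and 0.60, so its small difference at day 0 was not there on every day. Of the 4 imprinted genes at least 2-fold lower at day 0, *Grb10* was at −3.15, *Phlda2* at −2.01 and *Igf2* at −2.04 at day 4, further from 0 than at day 0, and *Calcr* was at −0.76, nearer to 0.

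**Figure D5:**
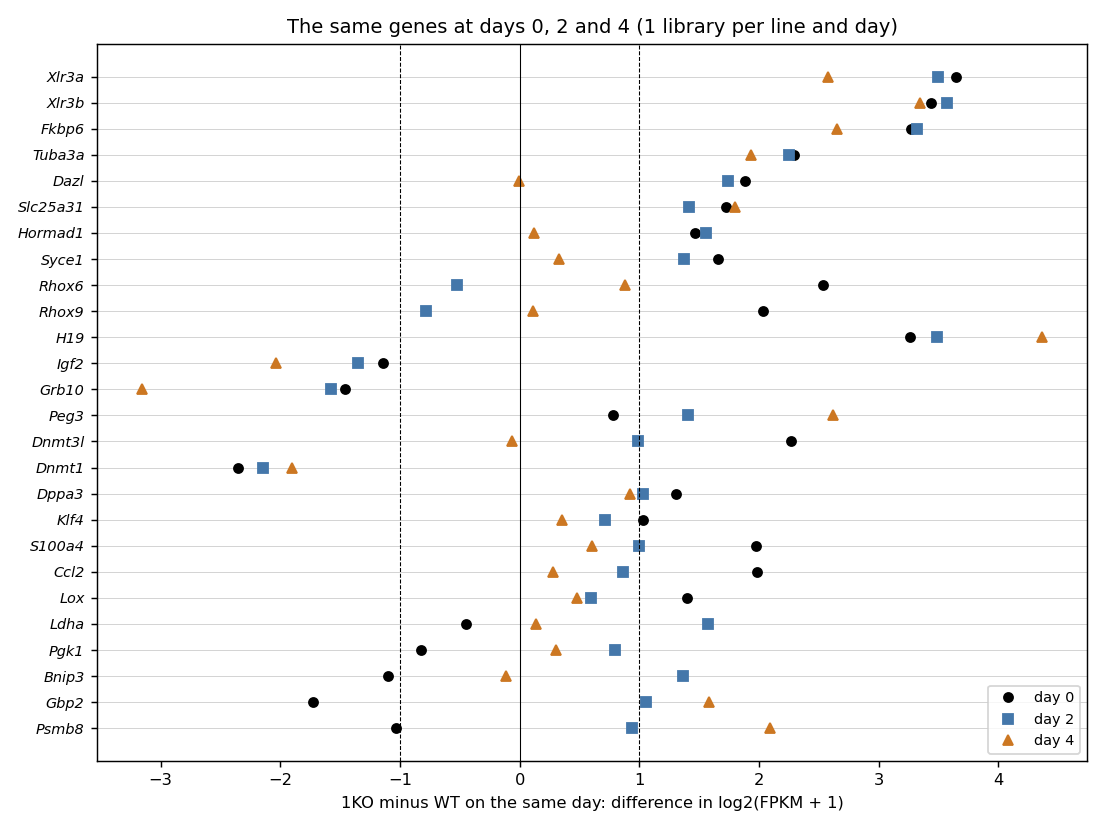
Points give the 1KO minus WT difference in log2(FPKM + 1) of each gene at day 0 (black circles), day 2 (blue squares) and day 4 (orange triangles), with dashed lines at −1 and 1 and 1 library behind each line and day. *Xlr3a*, *Xlr3b*, *Fkbp6*, *Tuba3a* and *H19* lie beyond 1 on every day, *S100a4*, *Ccl2* and *Lox* at day 0 alone, and *Bnip3* and *Gbp2* on both sides of 0.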

How the data were processed

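WT and 1KO ESCs were measured by poly(A) RNA-seq with 1 library for each line and day. The authors used Trim Galore for trimming, HISAT2 for alignment against mm10, SAMtools for the alignment files, and analyzeRepeats.pl of HOMER for counting and normalization. The values deposited are FPKM per gene symbol and per repeat copy. Tool versions, the annotation, strandedness and the treatment of multiply mapped reads, which bears on IAPs and near-identical genes, were not given in the sources used here.

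From these files, differences in log2(FPKM + 1) were computed, with a call at 2-fold, after 21 entries were left out, 1 of them named 0 and 20 holding a date in place of a symbol. Families were compared by mean FPKM over copies. The 2 tables hold columns of the 9 samples of the series and of no others. Of the genes, 99.8% were placed by RefSeq. Depth was read from genes with 1 transcript, as the number of reads for which FPKM times length falls best on whole numbers, and reads were taken as whole within 0.15. The folds and the depth were tested on simulated data. Promoter CpG content was not compared between groups of genes, because 73.3% of the higher genes had a promoter in the RefSeq table, less than the 80% needed.

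Named genes are *Dnmt1*, the 15 largest differences each way among genes of at least 1 FPKM, up to 5 called members of a list each way or else its highest and lowest, and all members of the writer, eraser and pluripotency panels. Named families are the 6 highest and 4 lowest with at least 10 copies and 13 known ones, and other names illustrate a list. Members and lists were chosen with earlier results of these data known. Alternatives were pseudocounts of 0.1 and 0.01, TPM and median-ratio scaling, a minimum of 1 FPKM, means over list members, medians over repeat copies and other copy minimums, and, added after seeing the data, leaving out chromosome 8 or the fibroblast list. Python 3.11.15, numpy, pandas, scipy and matplotlib were used.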

Additional observations from a re-analysis of the deposited data

Results flagged for a closer look

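Over all genes, 22 differed by at least 1 at day 0 and by at least 1 in the opposite direction at day 2 or day 4, of which 17 were lower and 5 higher at day 0. Among the genes named by rule there were 9, all lower at day 0, and 2 list medians changed sign by at least 0.3 either way. The difference between days was not tested, since each line and day has 1 library. *Gbp2*, an interferon-induced gene, was at −1.73 on day 0, 1.05 on day 2 and 1.58 on day 4, and *Psmb8* of the immunoproteasome at −1.03 on day 0 and 2.09 on day 4. *Mir6381*, which lies within *Gbp2*, was at −2.28 and 1.85 on the same days, and *Ltb* at −2.16 and 1.39. *Fgf8*, a growth factor gene of the primitive streak, was at −1.14 on day 0 and 3.17 on day 4, *Krt19* at −1.004 and 1.11 and *Trim67*, on chromosome 8, at −1.78 and 1.27. *Sall2* was at −1.09 on day 0 and 1.10 on day 2, and *Bnip3* at −1.10 and 1.37. The glycolysis list of 29 genes had medians of −0.58 on day 0, 0.37 on day 2 and 0.14 on day 4. Its sum was 8841 FPKM in WT and 6191 in 1KO ESCs on day 0 and 3934 and 6053 on day 2. The median of the 8 genes of the pluripotency panel was 0.34 on day 0, −0.39 on day 2 and 0.33 on day 4.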

How the results depend on the processing

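No paired analysis was possible because each line and day has 1 library. The pseudocount decided the size of most differences of low genes. With 0.1 FPKM, 899 genes were at least 2-fold higher and 782 lower, and with 0.01 FPKM 1150 and 1021, against 337 and 234 genes at least 2-fold lower. The *Rhox* and *Xlr* median became 3.04 and 3.23, the difference of IAPEz-int 3.13 and 3.28, that of IAPLTR1_Mm 2.46 and 2.53 and that of IAPLTR1a_Mm 2.596 and 2.86. With 0.01 FPKM, 5 families of at least 10 copies were higher. With the pseudocount of 1 FPKM used in the Results, 18 families of any copy number were higher and 24 lower. With genes of at least 1 FPKM, the median of germ cell genes was 0.60, of primitive endoderm genes −0.11, of trophoblast genes 0.56 and of the Y and *Xist* list 0.92. The mean in place of the median gave 0.18 for the DNA methyltransferase list, 0.56 for the pluripotency panel, 0.23 for the formative epiblast list, whose median is −0.14, and 0.85 for the Y and *Xist* list. The cause was not tested. No called difference changed sign under these settings, but for single genes none could. A pseudocount keeps the sign of a gene, and the scalings shift log2 ratios by only −0.05, 0.01 and 0.19. Of the 657 further values of single genes, families and chromosomes, 532 moved by less than 0.2. Those under scaling could not have moved further. Of the 125 others, 122 moved under a pseudocount. *Dnmt1* and the median of chromosome 8 moved by less than 0.2. At the WT depth, low genes rest on few reads, so the counts of calls near 1 FPKM are loose.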
